A study of Mus musculus with 6 samples.

Results

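The interferon-stimulated genes examined here were 40 genes whose transcription is known to increase when a cell receives an interferon. They were chosen by name from a list of antiviral and inflammatory effectors. The rule uses no measured value, but the list was drawn up with earlier results of these data known. All 40 were among the 14298 genes with a value in the deposited table. Among them were 7 type I effectors (Isg15, 3 Ifit genes, 2 Oas genes and Oasl2) and 5 gamma-type GTPases (Gbp2, Gbp3, Igtp, Irgm1, Irgm2). The other 28 were 4 transcription factors, 5 RNA sensors and RNA enzymes, 6 restriction factors, 7 enzymes of ubiquitin, ISG15 or ADP-ribose attachment, and 6 further members.

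PolyA RNA was sequenced from the aortic arches of adult C57/BL6 mice that all lacked apolipoprotein E (ApoE-/-), which makes them prone to atherosclerosis, and that all carried RBPJflox/flox, floxed alleles of Rbpj, whose protein binds DNA together with activated Notch. The 3 control mice were ApoE-/-;RBPJflox/flox, and the 3 knockout mice carried Cdh5-CreERT in addition, a recombinase that is driven by an endothelial promoter and activated by tamoxifen. Tamoxifen was given for 1 week at 8 weeks of age and the mice then ate a high-fat diet for 6 weeks. The controls had no recombinase, so deletion and recombinase cannot be told apart, and the arch holds all vessel cells while the recombinase acts in endothelium.

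Type I interferons signal through the receptor chains Ifnar1 and Ifnar2 to a complex that holds Stat2 and Irf9 and binds the interferon-stimulated response element (ISRE), a repeat of the bases GAAA. Interferon gamma acts through another receptor and the gamma-activated site (GAS) in its target genes, and induces factors such as Irf1 that also read GAAA repeats. The 2 programmes therefore overlap, with Ifit and Oas genes known mainly as type I targets and guanylate-binding and immunity-related GTPases mainly as gamma targets. In atherosclerotic arteries, macrophages, endothelial cells and smooth muscle cells can all express them.

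RefSeq promoter windows of the GRCm38.p6 build, each 300 bases long with 250 before the transcription start and 50 after it, were found for 35 of the 40 genes. An ISRE core was taken as 2 copies of GAAA with 2 bases between them, and a GAS core as TTC and GAA with 3 bases between them, each searched on both strands. Cores of either kind may overlap each other. The ISRE core was present in 19 of the 35 genes (54.3%), against 3.99% of all 27025 genes with a window, and the GAS core in 11 of the 35 (31.4%), against 9.55%. Counted over single windows of the same length, the shares were 46.5% against 3.44% for the ISRE core and 25.6% against 8.30% for the GAS core. Restricted to the bases before the start, the ISRE core was present in 15 of the 35 genes, against 3.46% of all genes. The GAS core was then present in 8 of the 35 (22.9%), against 8.13%. With 1, 2 or 3 bases allowed between the copies of GAAA, the ISRE core was present in 25 of the 35 (71.4%), against 9.91%. All 5 gamma-type GTPases held an ISRE core, as did 4 of the 6 type I effectors with a window. A match is a description of the letters and not a measured binding site.

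The following stretches are shown because they carry the cores of genes on which the results turn, type I effectors first, then a restriction factor, 2 gamma-type GTPases, a transcription factor and a further restriction factor. Each runs 5′ to 3′ on the strand of its gene, with the cores in capitals and up to 25 further bases on each side.
Isg15, chr4:156200850-156200921 (minus strand): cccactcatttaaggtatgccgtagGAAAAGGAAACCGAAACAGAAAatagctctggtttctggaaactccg
Ifit1, chr19:34640760-34640838 (plus strand): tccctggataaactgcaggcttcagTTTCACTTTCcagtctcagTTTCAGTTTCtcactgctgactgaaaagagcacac
Ifit3, chr19:34583348-34583441 (plus strand): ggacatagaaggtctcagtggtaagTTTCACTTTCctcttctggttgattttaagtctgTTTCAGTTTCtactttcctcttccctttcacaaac
Oas1a, chr5:120907526-120907648 (minus strand): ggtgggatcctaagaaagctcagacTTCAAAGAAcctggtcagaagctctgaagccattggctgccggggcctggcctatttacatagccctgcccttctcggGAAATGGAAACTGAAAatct
Bst2, chr8:71537562-71537633 (minus strand): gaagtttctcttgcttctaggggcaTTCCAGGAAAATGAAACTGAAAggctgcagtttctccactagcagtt
Igtp, chr11:58199486-58199555 (plus strand): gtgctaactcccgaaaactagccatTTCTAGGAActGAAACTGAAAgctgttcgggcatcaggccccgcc
Irgm2, chr11:58214877-58214947 (plus strand): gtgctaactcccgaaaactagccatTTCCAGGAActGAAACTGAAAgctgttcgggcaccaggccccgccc
Irf1, chr11:53769899-53769957 (plus strand): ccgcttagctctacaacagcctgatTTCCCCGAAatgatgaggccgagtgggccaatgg
Rsad2, chr12:26456538-26456597 (minus strand): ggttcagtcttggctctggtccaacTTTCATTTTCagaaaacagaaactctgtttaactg

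In the Isg15 stretch, 3 overlapping ISRE cores ran from 78 to 57 bases before the start. Oas1a had 2 ISRE cores directly before the start and a GAS core further upstream. Bst2 had a GAS core that overlapped the first of its 2 ISRE cores, which overlapped each other. Igtp and Irgm2, which are direct neighbours on chromosome 11, each had a GAS core next to an ISRE core. Their stretches were identical at 68 of 70 positions compared. Irf1 had a GAS core and no ISRE core in its window.

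**Figure D1:**
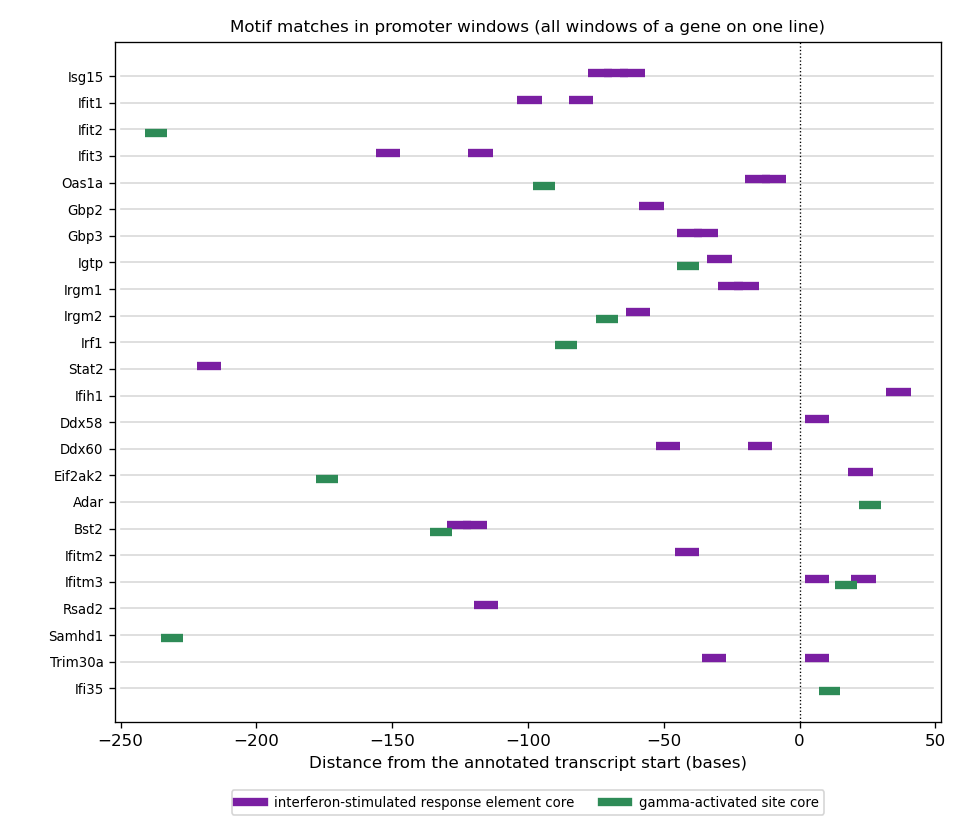
Position of each ISRE core and each GAS core in the promoter windows of the interferon-stimulated genes that hold at least 1 of them, with a line for each gene and with the distance from the transcription start in bases on the horizontal axis. ISRE cores are present in 19 of the 35 genes with a window, and GAS cores in 11.

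The libraries held 5904504 to 10072495 reads over the listed genes, and 1 read was worth 0.0964 to 0.178 CPM, the unit of the depth-normalised levels below. Rbpj itself, the floxed gene, was at 189 ± 13.2 CPM in the controls and 193 ± 21.7 CPM in the knockouts (SD, n = 3 each), a log2 difference of 0.03 (95% interval −0.24 to 0.30, limma adjusted p = 0.923), whose sign turned when S591 (−0.03) or S599 (−0.05) was left out and was −0.16 without both S598 and S599. An exact two-sided permutation test gave p = 0.9, with 0.1 the smallest p that 3 against 3 allows. The targeted gene therefore does not check the labels in whole arch tissue, and a group is called knockout because its label says so. Macrophage markers had lower means in the knockouts for 15 of 15 genes. Their groups were apart for 13, against 14.2% of all genes, and overlapped for 2. The summed levels of these markers were 6906 to 11409 CPM in the controls and 2867 to 6758 CPM in the knockouts. A large part of each sum came from 1 marker whose groups overlapped, at 3765 CPM in S591 and 4120 CPM in S599. Examples of the macrophage markers were Itgam, an integrin chain of myeloid cells (159 ± 63.2 against 49.8 ± 5.06 CPM), and Tyrobp, a myeloid signalling adaptor (160.4 ± 24.3 against 75.1 ± 20.9 CPM). T cell and thymocyte markers, 11 of 12 listed, summed to 33.7 to 44.5 CPM in the controls, 30.7 CPM in S595, 220.6 CPM in S598 and 97.9 CPM in S599. Dntt, an enzyme of developing lymphocytes, was at 1.69, 0.872 and 1.42 CPM in the controls and at 1.29, 23.5 and 7.16 CPM in the knockouts, and Cd28, a costimulatory receptor, at 4.40 ± 1.39 against 8.24 ± 2.33 CPM. These markers set S598 and S599 apart from the other libraries. The endothelial markers, 12 of 12 listed, overlapped between the groups for every gene, as did 10652 of all 14298 genes. They included Cdh5 (132 ± 12.7 against 139 ± 51.1 CPM), Vwf (327 ± 38.5 against 257 ± 70.9 CPM) and Tie1 (87.6 ± 11.9 against 69.8 ± 17.8 CPM). S599 was the highest knockout library for all 12, against 35.7% of all genes, and was below all controls for 0. S595 was below all controls for 10 of the 12 and S598 for 7, against 30.7% and 34.9% of all genes. All 8 smooth muscle markers had higher means in the knockouts, with groups apart for 3, and all 8 fibroblast markers lower means, with groups apart for 3. Over all 14298 genes, 1617 were apart with the knockouts higher and 2029 with the knockouts lower. Of plasmacytoid dendritic cell markers 2 of 5 had a value, with sums of 1.73 to 3.02 CPM in the controls and 1.52 to 18.6 CPM in the knockouts. Most of the highest sum, in S598, came from 1 of them at 17.2 CPM. Of B cell markers 3 of 6 had a value, with sums of 32.6 to 44.0 CPM and 18.1 to 33.0 CPM. Of these, 1 made up most of each sum and had a log2 difference of −0.83, while the other 2 had positive ones, up to 0.37. No marker with a value was at 0. Over all genes the control S591 was nearer to the knockouts S599 and S595 (chi-square per degree of freedom of their reads 15.2 and 20.9) than to the controls S592 and S594 (32.3 and 34.1). This measure can grow with depth, and S591, S599 and S595 had the fewest reads (5904504, 6181341 and 6713700). The controls S592 and S594, with more reads, were at 12.5 from each other. S599 was nearer to the control S591 than to the knockouts S595 (18.1) and S598 (18.4). The part of any of these in the results below was not tested, and in whole tissue fewer cells of a type and less RNA per cell cannot be told apart.

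Across the interferon-stimulated genes, levels stood lower in the knockout arches. The log2 difference, computed on CPM + 1 as knockout minus control, was negative for 39 of 40 genes and ran from −1.61 for Oas1a to 0.11 for Ifit2. Its median was −0.43, while the median over all 14298 genes was −0.02. None of the 40 passed limma's test at a Benjamini-Hochberg adjusted p of 0.05, with adjusted values from 0.107 to 0.927, and only 3 genes of the whole table did (0.021% in either direction, 0% in the lower direction). At an unadjusted p under 0.05, 28 of the 40 were lower and 0 were higher, against 12% of all genes lower and 8.04% higher. For 26 of the 40 every knockout library was below every control library, against 14.2% of all genes, and for the other 14 the groups overlapped. DESeq2 on the recovered reads called 12 of the 40 lower, against 4.29% of all genes. The edgeR quasi-likelihood test called 0 of the 40, with 27 lower at an unadjusted p under 0.05, against 12.1% of all genes.

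Without S598 and S599, which leaves S595 as the 1 knockout library, 38 of the 40 differences were negative, with a median of −0.48. At an unadjusted p under 0.05, 18 were lower, against 6.33% of all genes. For 17 of the 40 the value moved by more than 1.5 times or turned. It was nearer to 0 for Isg15 (−0.53), Ifit1 (−0.12), Oas2 (−0.78), Irgm2 (−0.46), Usp18 (−0.27), Irf9 (−0.14), Ifitm2 (−0.13) and Ifit2 (0.04), and turned for Ifi35 (0.05). It was further from 0 for Gbp2 (−0.36), Irf1 (−0.48), Ddx60 (−0.95), Rsad2 (−0.28), Cmpk2 (−0.16), Herc6 (−0.43), Trim30a (−0.98) and Parp9 (−0.34).

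**Figure D2:**
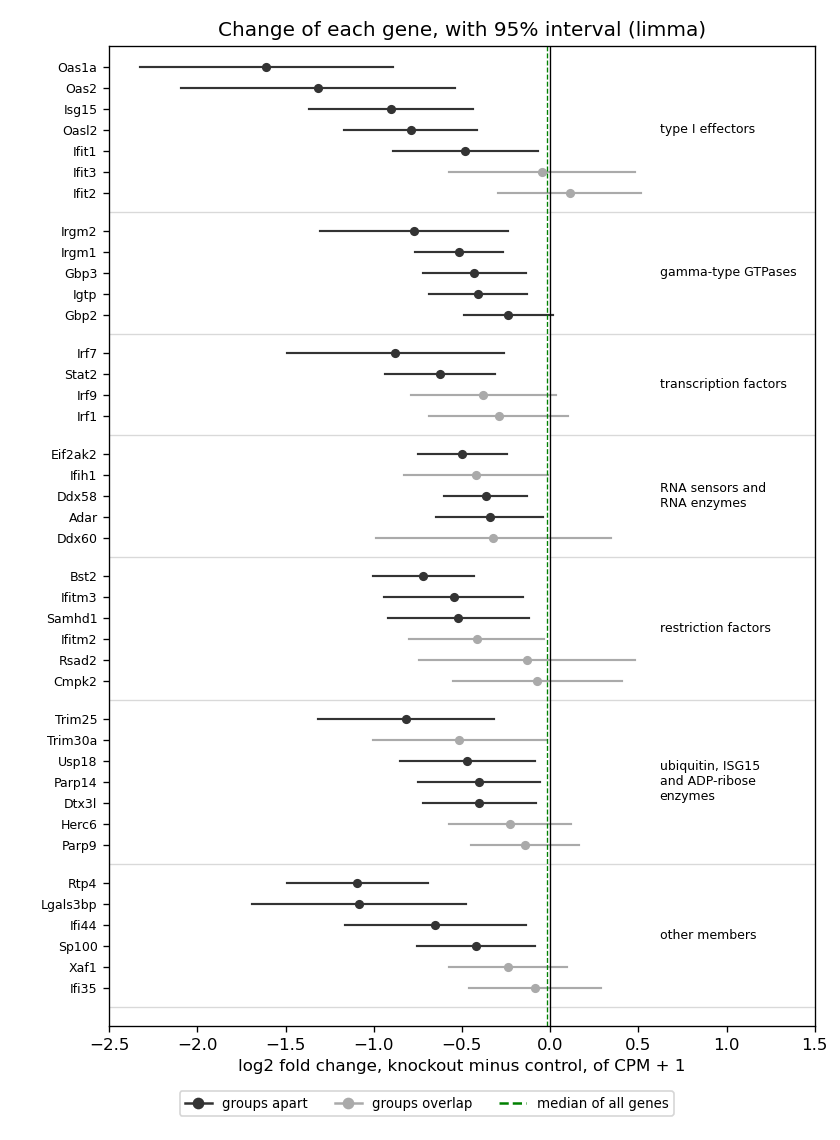
The log2 difference of each of the 40 genes, knockout minus control, on the scale of CPM + 1, with its 95% interval from limma and the genes grouped by role. Dark points are the 26 genes whose groups do not overlap, grey points the 14 that overlap, and the dashed line is the median of all genes at −0.02; Ifit2 is the 1 gene right of 0.

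The 3 knockout libraries were not equally low. S595 was below all controls for 35 of the 40 genes, S598 for 36 and S599 for 30. Over all genes the shares were 30.7%, 34.9% and 31.5%. S598 was the lowest knockout library for 24 genes and S599 the highest for 26. Summed over the 40 genes, the levels were 2197, 2359 and 2753 CPM in the control libraries S591, S592 and S594, and 1699, 1501.5 and 1813 CPM in the knockout libraries S595, S598 and S599. The sums did not overlap. The same order of libraries held for the summed macrophage markers, with S591 the lowest control and S599 the highest knockout for 15 of 15 of them. Gene by gene, S591 was the lowest control for 19 of the 40 genes, against 35.3% of all genes. S599 was the highest knockout for 35.7% of all genes, and also for 12 of 12 endothelial markers.

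**Figure D3:**
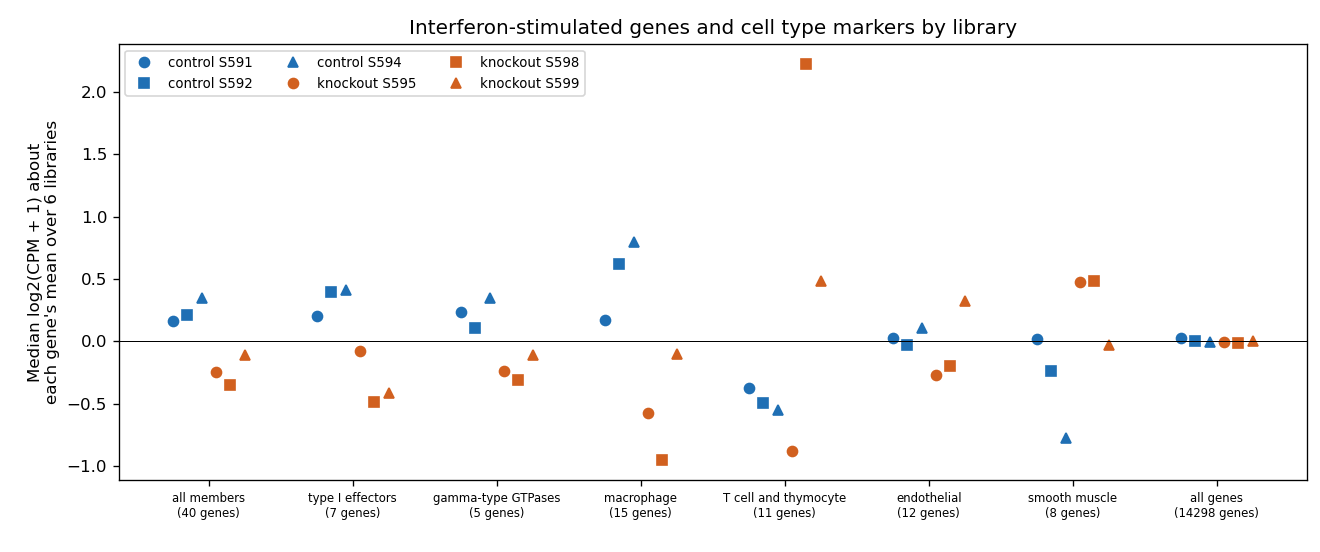
Median over each gene list of the log2 level of CPM + 1 in each library, taken about each gene's mean over the 6 libraries. For the 40 interferon-stimulated genes the controls lie at 0.16, 0.21 and 0.35 and the knockouts at −0.24, −0.35 and −0.11; for the macrophage markers the controls lie at 0.17, 0.62 and 0.80 and the knockouts at −0.57, −0.96 and −0.10.

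The type I effectors held both the most negative differences and the only positive one. Of the 7, 5 were lower at an unadjusted p under 0.05 and 5 had groups that did not overlap, with a median log2 difference of −0.79. Beside these counts, and those of each member group that follows, stand 12% of all genes lower and 14.2% apart with the knockouts lower. Oas1a and Oas2 encode synthetases that make the oligoadenylate messenger activating RNase L. Oas1a stood at 19.3, 34.8 and 39.2 CPM in the controls and 12.4, 6.41 and 9.36 CPM in the knockouts. All knockout libraries were below the lowest control, S591, and the means differed 3.31-fold (log2 difference −1.61, SE 0.31, adjusted p = 0.107). Oas2 was at 25.9, 34.8 and 59.0 CPM against 21.5, 11.1 and 12.7 CPM. S595 came close to S591, and the log2 difference was −1.32 (SE 0.33, adjusted p = 0.121). Oasl2, a ubiquitin-like relative of the synthetases, was at 45.8, 56.4 and 69.7 CPM against 31.0, 30.1 and 35.8 CPM, with narrow knockout values and a log2 difference of −0.79 (SE 0.16, adjusted p = 0.107). Reads of Oas1a may be shared with its near-identical copy Oas1g, which was itself at 8.92 ± 2.69 against 2.06 ± 0.713 CPM.

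Isg15, the ubiquitin-like modifier with 3 ISRE cores in the stretch above, was at 15.01, 16.0 and 14.8 CPM in the controls and at 10.3, 5.93 and 7.47 CPM in the knockouts. The controls were close together (15.3 ± 0.655 CPM), all knockouts were lower, and the log2 difference was −0.90 (SE 0.20, adjusted p = 0.111). The Ifit genes, which encode proteins that bind foreign RNA, had log2 differences from −0.48 to 0.11. Ifit1 was at 22.3, 21.0 and 24.2 CPM against 20.6, 13.7 and 13.9 CPM, where S595 sat just under the lowest control (log2 difference −0.48, SE 0.18, adjusted p = 0.198). Ifit2 was at 30.6, 37.4 and 23.0 CPM against 30.7, 32.3 and 33.7 CPM. Ifit3 was at 47.9, 40.04 and 25.5 CPM against 35.5, 30.8 and 40.3 CPM. In both, the knockout libraries lay inside the control range, and S594, which had the highest sum over the 40 genes, was the lowest of all 6 libraries. The log2 differences were 0.11 for Ifit2 (95% interval −0.29 to 0.52) and −0.05 for Ifit3 (−0.57 to 0.48). The interval of Ifit1 (−0.89 to −0.07) overlaps both. The signs of these 2 genes were not stable: without S594, Ifit2 was at −0.07, and without S591, Ifit3 was at 0.14. Ifit2 and Ifit3 are direct neighbours on chromosome 19 with 3 protein-coding genes between Ifit3 and Ifit1, and reads of Ifit3 may be shared with its near-identical copy Ifit3b. Both ISRE cores of Ifit1 and of Ifit3 are shown above, and no ISRE core was found in the window of Ifit2.

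**Figure D4:**
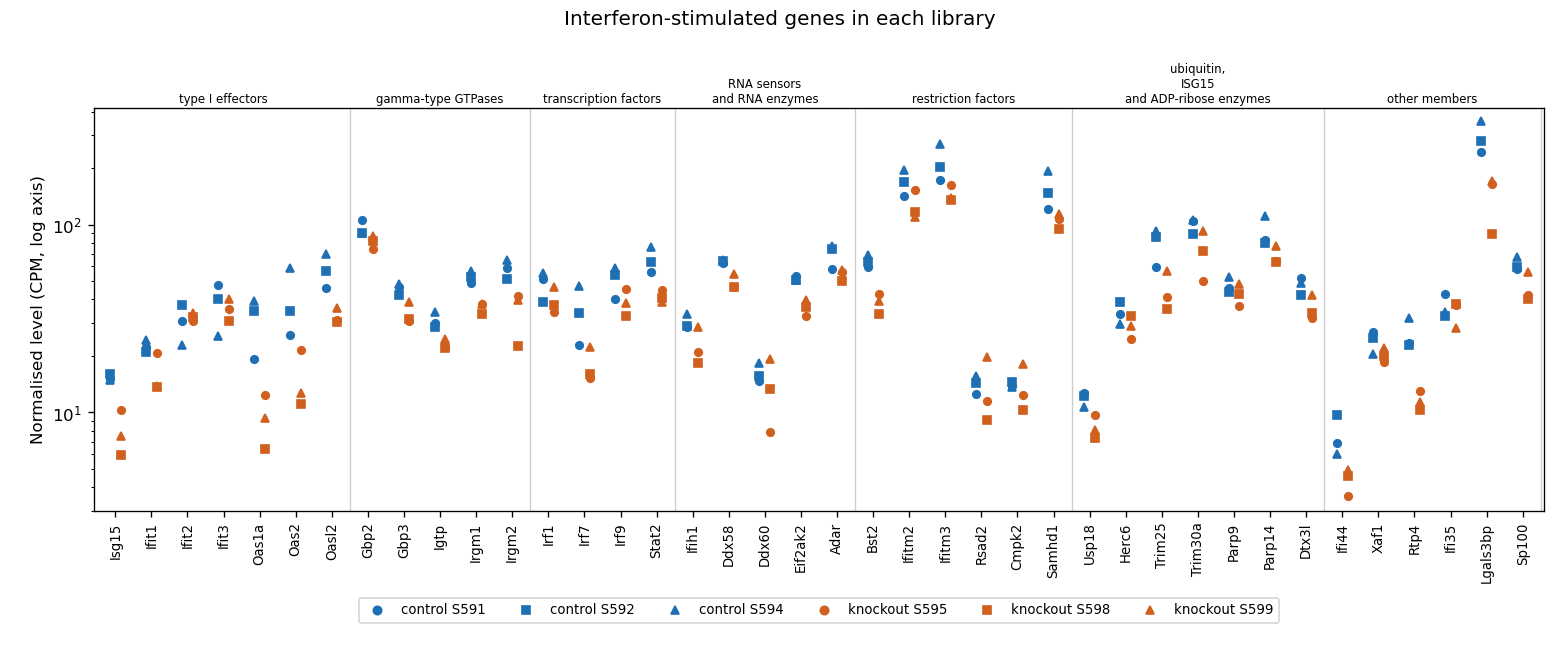
Levels in CPM, on a log axis, of the 40 interferon-stimulated genes in the 3 control and 3 knockout libraries, each point 1 library. Oas1a, Isg15 and Irgm1 show groups that do not overlap, while those of Ifit2 and Ifit3 overlap.

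The gamma-type GTPases, which take part in defence against intracellular microbes, stood lower in the knockouts in all members. In all 5 every knockout library was below every control library, 4 of 5 were lower at an unadjusted p under 0.05, and the median log2 difference was −0.43, with a range of −0.77 to −0.24. Irgm1 was at 49.1, 52.4 and 56.5 CPM in the controls and at 38.0, 33.6 and 38.0 CPM in the knockouts. Its groups were tight and well apart (log2 difference −0.52, SE 0.11, adjusted p = 0.107). Irgm2 was at 58.5, 51.0 and 65.1 CPM against 41.8, 22.6 and 39.7 CPM, so S598 stood far below the other knockouts (log2 difference −0.77, SE 0.23, adjusted p = 0.141). Without S598 its difference was −0.50. Its neighbour Igtp, also called Irgm3, was at 30.1, 28.5 and 34.3 CPM against 22.3, 22.1 and 24.6 CPM and had no such low value in S598 (log2 difference −0.41, SE 0.12, adjusted p = 0.138). The promoter stretches of both genes, shown above, are nearly the same. Gbp3 was at 46.3, 42.2 and 48.4 CPM against 30.8, 31.4 and 38.9 CPM (log2 difference −0.43). Gbp2 had the smallest difference of the 5, with 105.8, 90.7 and 90.4 CPM against 74.2, 81.4 and 87.1 CPM. Its groups were apart by only a few CPM, and the 95% interval of −0.24 ran from −0.49 to 0.01. The difference between the type I and gamma-type medians was not tested, and without S598 and S599 the medians were −0.53 and −0.46.

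Among the 4 transcription factors, 2 had groups that did not overlap and were lower at an unadjusted p under 0.05. Stat2, a signal transducer of the type I receptor, was at 55.9, 63.2 and 76.2 CPM in the controls and at 44.97, 40.9 and 38.8 CPM in the knockouts, all below S591 (log2 difference −0.63, SE 0.13, adjusted p = 0.108). Irf7, the factor that amplifies interferon alpha genes, was at 22.8, 34.0 and 47.3 CPM against 15.3, 16.1 and 22.3 CPM. The gap was small, since S591 at 22.8 and S599 at 22.3 CPM were nearly level (log2 difference −0.88, SE 0.26, adjusted p = 0.143). Irf9, the DNA-binding partner of Stat2, was at 40.2, 54.1 and 58.4 CPM against 45.4, 32.4 and 38.5 CPM, and its groups overlapped through S595. Irf1, the gamma-induced factor with the GAS core shown above, was at 51.3, 38.8 and 55.3 CPM against 34.2, 37.4 and 46.5 CPM and overlapped through S599 (log2 difference −0.29, 95% interval −0.68 to 0.10).

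The 5 RNA sensors and RNA enzymes had a median log2 difference of −0.37, with 4 lower at an unadjusted p under 0.05 and 3 apart. Ddx58, the sensor RIG-I, was at 62.3, 63.6 and 64.5 CPM in the controls and at 46.6, 46.4 and 54.3 CPM in the knockouts. The controls were within a few percent of each other and above every knockout (log2 difference −0.37, SE 0.10, adjusted p = 0.129). Eif2ak2, the kinase PKR that stops translation on double-stranded RNA, was at 53.2, 50.8 and 50.5 CPM against 32.6, 36.3 and 39.9 CPM. These groups too were tight and apart (log2 difference −0.50, SE 0.11, adjusted p = 0.110). Adar, which edits adenosine in double-stranded RNA, was also apart, by less than 1 CPM between S591 at 58.4 and S599 at 57.5 CPM. Ifih1, the sensor MDA5, overlapped in S599, which at 28.5 CPM lay just above S591 at 28.3 CPM. Ddx60, a helicase of the same pathway, was at 14.7, 15.6 and 18.3 CPM against 7.84, 13.4 and 19.3 CPM, so S599 was the highest and S595 the lowest of all libraries. Its log2 difference of −0.32 was −0.0053 without S595.

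The 6 restriction factors split in the same way, with 4 lower at an unadjusted p under 0.05 and 3 apart. Bst2, the tetherin that holds budding virus at the cell surface, was at 59.6, 63.1 and 68.8 CPM in the controls and at 42.8, 33.3 and 39.4 CPM in the knockouts. All knockouts lay well below the controls (log2 difference −0.72, SE 0.12, adjusted p = 0.107). Ifitm3, which blocks fusion of virus with endosomes, was at 174, 202 and 269.7 CPM against 162, 134 and 138 CPM (log2 difference −0.55), and Samhd1, which depletes nucleotides, at 121, 148 and 193 CPM against 107, 94.6 and 114 CPM (log2 difference −0.52). In both, S594 was far above the other controls, and without it Samhd1 was at −0.35. Ifitm2, an Ifitm3 relative on the same chromosome, overlapped because S595 at 152 CPM was above S591 at 141 CPM. Rsad2, which encodes viperin, was at 12.5, 14.4 and 15.5 CPM against 11.5, 9.11 and 19.7 CPM. Its direct neighbour Cmpk2, a nucleotide kinase, was at 13.8, 14.6 and 13.7 CPM against 12.4, 10.3 and 18.2 CPM. The pair had the same arrangement, with S599 the highest of all 6 libraries and S598 the lowest. Without S598 both differences turned positive, at 0.09 for Rsad2 and 0.10 for Cmpk2.

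Of the 7 enzymes that attach or remove ubiquitin, ISG15 or ADP-ribose, 5 were lower at an unadjusted p under 0.05 and 4 were apart, with a median log2 difference of −0.41. Trim25, the ubiquitin ligase that activates RIG-I, had the most negative one, at 59.8, 85.6 and 92.3 CPM against 41.2, 35.7 and 56.9 CPM. S599 came within a few CPM of S591 (log2 difference −0.82, SE 0.21, adjusted p = 0.122). Usp18, which removes ISG15 and damps the receptor, was at 12.7, 12.3 and 10.7 CPM against 9.66, 7.28 and 8.10 CPM and was apart (log2 difference −0.47, SE 0.16, adjusted p = 0.178). Parp14, an ADP-ribosyltransferase, and Dtx3l, a ubiquitin ligase, were apart with log2 differences of −0.41 and −0.40, while Parp9, the partner of Dtx3l and its direct neighbour on chromosome 16, overlapped at −0.14. Trim30a, of a rodent Trim family, was at 104, 89.3 and 106 CPM against 49.8, 72.2 and 92.9 CPM, and S599 was above S592. Its log2 difference of −0.51 was −0.28 without S595, and that of Parp14 was −0.26 without S594. Herc6, which in mice attaches ISG15, overlapped with a log2 difference of −0.23.

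The other 6 members included 2 with more than 2-fold lower means. Rtp4, a chaperone of receptors that also acts against viruses, was at 23.4, 22.7 and 31.9 CPM in the controls and at 13.01, 10.3 and 11.4 CPM in the knockouts. The knockout libraries lay close together and far below the controls (2.25-fold, log2 difference −1.09, SE 0.17, adjusted p = 0.107), and Rtp4 had the smallest p of the 40 genes. Lgals3bp, a secreted glycoprotein that binds galectins, was at 244, 279.6 and 356 CPM against 165, 89.0 and 170.1 CPM. S598 was the lowest by far, and the log2 difference was −1.08 (SE 0.26, adjusted p = 0.121). Ifi44, an antiviral protein, was at 7.52 ± 1.95 CPM against 4.37 ± 0.713 CPM, with groups apart (log2 difference −0.65). Sp100, a nuclear body protein, was apart at −0.42. Xaf1, which promotes cell death, overlapped at −0.24, and so did Ifi35, a protein that binds the related factor Nmi, at −0.09. Of the 40 genes, 4 had means more than 2-fold apart (Oas1a, Oas2, Rtp4 and Lgals3bp), and 9 had a log2 difference within 0.25 of 0.

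Expression was also read against the promoter cores. The 19 genes with an ISRE core had a median log2 difference of −0.48 and 13 with groups apart. The 16 with a window and no ISRE core had a median of −0.39 and 9 apart. Lgals3bp and Oasl2 were among the latter, and Ifit3 among the former. This split depends on the spacing: with 1, 2 or 3 bases allowed, 25 of the 35 genes held an ISRE core, Lgals3bp among them. Expression was not read against that wider core. The 6 genes with both cores (Oas1a, Ifitm3, Bst2, Igtp, Irgm2 and Eif2ak2) were all apart, with a median of −0.63. The 5 genes without a window had a median of −0.47 and 4 apart. For comparison, the knockouts were apart and lower for 26 of all 40 genes and for 14.2% of the whole table. No test was made of these differences.

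The other genes of the pathway were taken from lists of 88 genes, of which 78 had a value, and 0 of the 78 passed limma's adjusted threshold. Of them 36 were lower and 1 was higher at an unadjusted p under 0.05, 36 were apart with the knockouts lower, and their median log2 difference was −0.40. The shares of all genes to set beside these counts, and beside those of each list that follows, are 12% lower, 8.04% higher and 14.2% apart. Of 11 ligands and receptors, 6 had a value, all of them receptor chains, and 3 were lower at an unadjusted p under 0.05. Ifnar2, a chain of the type I receptor, was at 81.0 ± 8.73 against 60.4 ± 8.997 CPM (log2 difference −0.42, adjusted p = 0.162), and Il10rb, the shared chain of the lambda receptor, at 108 ± 14.9 against 74.2 ± 21.8 CPM (−0.57, adjusted p = 0.193). The 5 interferon genes themselves (Ifna2, Ifna4, Ifnb1, Ifnk and Ifng) had no value in the table, so ligand levels were not analysed here.

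Of the 11 genes of JAK-STAT signalling and its inhibitors, 5 were lower and 1 was higher at an unadjusted p under 0.05, with a median of −0.22. Socs3, an inhibitor induced mainly by interleukin 6 type cytokines, had the largest difference of the pathway genes, at 60.7, 63.2 and 70.9 CPM against 19.6, 10.3 and 16.1 CPM (log2 difference −2.06, SE 0.21, adjusted p = 0.059).

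The other regulatory factors were lower at an unadjusted p under 0.05 in 4 of 7, and the smallest p values were those of Irf5, a factor of myeloid cells (45.1 ± 7.83 against 24.2 ± 7.17 CPM), and Nlrc5, the activator of class I antigen presentation genes (33.7 ± 9.42 against 18.7 ± 2.02 CPM). Of 15 nucleic acid sensing genes, 9 were lower, with a median log2 difference of −0.68. Tlr9, the DNA sensor of endosomes, was at 10.8 ± 2.77 against 3.84 ± 1.06 CPM, and Zbp1, a sensor of Z-form nucleic acid, at 18.4 ± 4.59 against 8.07 ± 1.78 CPM. Of 24 other type I genes, 9 were lower, with a median of −0.40. Oas1g had the most negative log2 difference (−1.68, adjusted p = 0.107), and Slfn5, of the Schlafen family, was at 116 ± 24.8 against 58.2 ± 9.55 CPM. Of 20 other gamma-type genes, 15 had a value and 6 were lower, with a median of −0.32 and a range of −0.76 to 0.17. Groups were apart for 7 of the 15 and overlapped for 8. The guanylate-binding genes of this list that had a value all overlapped: Gbp4 (−0.12), Gbp7 (−0.09), Gbp8 (−0.02) and Gbp9 (−0.26). Cd274, the checkpoint ligand PD-L1, was at 42.5 ± 4.37 against 24.8 ± 4.42 CPM (−0.76, adjusted p = 0.107), and Tap1, the peptide transporter, at 42.0 ± 5.54 against 27.1 ± 2.18 CPM (−0.61, adjusted p = 0.110).

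Of the 12 members that DESeq2 called lower (adjusted p 0.000145 to 0.0339), 4 were type I effectors (Isg15, Oas1a, Oas2 and Oasl2) and 1 was a gamma-type GTPase (Irgm1). Irf7, Stat2, Eif2ak2, Bst2, Trim25, Rtp4 and Lgals3bp made up the rest. One control library decided whether limma called any member: without S591, it called 9 of the 40 lower (adjusted p 0.0283 to 0.0485), namely Oas1a, Oas2, Oasl2, Irgm1, Irf7, Stat2, Bst2, Trim25 and Rtp4, against 3.29% of all genes. All 9 were among the 12 of DESeq2. S591 was the control with the lowest summed level of both the 40 genes and the macrophage markers.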

How the data were processed

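Aortic arch RNA with an integrity number of at least 7.9 was sequenced after TruSeq preparation, per the labels' protocols. The submitters' processing notes name CASAVA 1.8, cutadapt 1.6.1, RSEM 1.16, Bowtie 0.12.7, limma, edgeR and build NCBIM37, without their roles. The deposited values are a normalised signal that the authors computed per gene and library. Whole reads were recovered from 100% of the values (tolerance 0.01): each value is (reads + 0.5) in CPM of a scaled library size. A column gives its group and a library number only, so no pairing was made. The labels give 3 mice per group.

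The comparison used log2(CPM + 1) and limma 3.58.1 (R 4.3.3) with a variance trend, genotype only and Benjamini-Hochberg adjustment over all 14298 genes. Listed genes all had at least 1 CPM in at least 3 libraries, so the filter at that level removed none. The pseudocount makes the fold of low genes appear smaller. No gene lengths were used, so levels were not compared between genes. Counts with edgeR 4.0.16, DESeq2 1.42.0 and limma-voom on recovered reads, other pseudocounts, a mean of at least 5, quantile normalisation and leaving libraries out were alternatives. The fits were also run on simulated counts that held no outlier library and no shift of cell types, so that run does not bear on either. Identifiers matched a symbol for 13828 genes. For the counting, strand and annotation were not stated in the labels or notes. Members and lists were chosen with earlier results of these data known. Named were all members, Rbpj, Cdh5 and the 2 genes of smallest p in each pathway list and in the macrophage, T cell and endothelial lists. Gbp4, Gbp7, Gbp8 and Gbp9 were named in addition, as relatives of Gbp2 and Gbp3. Of the genes to be named, 1 is not reported here.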

Additional observations from a re-analysis of the deposited data

How the results depend on the processing

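Of the 40 genes, 35 kept the sign of their difference in all 14 alternatives and 5 did not. Ifit3 ranged from −0.30 to 0.14 with each library left out in turn and was 0.0085 under quantile normalisation. Ifi35 ranged from −0.16 to 0.051 and was 0.046 without S598 and S599. Ifit2 ranged from −0.069 to 0.27, Rsad2 from −0.43 to 0.091, Cmpk2 from −0.29 to 0.096, and Rbpj from −0.045 to 0.12, with −0.16 for Rbpj without S598 and S599. The cause was not tested. Leaving out 1 library moved between 4 and 7 of the 40 values by more than 1.5 times or turned them. Over the whole table limma called 3 genes, against 900 by DESeq2 and 0 by edgeR, by limma-voom, at pseudocounts of 0.5 and 0.1, at a mean of at least 5 and without S598 and S599. With each library left out the count ran from 0 to 671, the highest without S591. It was 0 without S592, S598 or S599. The members called were 12 by DESeq2 and 0 to 9 with each library left out, and 0 under every other alternative. The median of the 40 genes lay between −0.53 and −0.36 in all 14 alternatives. Without S598 and S599, 1 knockout library is left, whose spread is taken to equal that of the controls. No paired analysis was possible because the columns carry a library number and not the replicate numbers of the titles. Depth limits the low genes most: members had 23 to 2870 reads per library.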
